A study of Arabidopsis thaliana with 24 samples.

Results

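These results describe 133 genes of Arabidopsis thaliana whose transcripts were more abundant in rosettes grown from seed treated with methyl jasmonate (primed plants) than in rosettes from water-treated seed (not-primed plants), in each of 3 states of infestation. They are the members of the set, and they were chosen by their measured levels among 32833 genes. Counts were scaled to CPM, counts of the gene per 1000000 counts of the library, and a gene entered when its mean CPM in primed plants was at least 1.5 times that in not-primed plants in every state and at least 5 in every group of primed plants. The rule left out 17 genes by name, among them BT2, TPS8, SEN1 and DIN10, and 15 of these met both thresholds. All plants were wild type. The groups, with 4 libraries each and 24 in all, were primed uninfested, primed and exposed to the spider mite Tetranychus urticae for 24 h, primed and exposed to Pieris brassicae caterpillars for 24 h, and the same 3 states of not-primed plants. The design asks how seed treatment with methyl jasmonate bears on the transcripts of the rosette and on its response to each pest. The labels number the biological replicates without saying whether each was 1 plant or a pool, and p-values therefore measure the spread between these samples.

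Methyl jasmonate is a volatile form of jasmonic acid, a hormone of wounded plants, and a treatment given to seed can alter later responses. Some of the members, and most of the genes that the rule left out by name, are known from other work on Arabidopsis as genes whose transcripts accumulate in the dark or when sugar is scarce and decline when sugar is supplied. That response runs through the kinase SnRK1, which is active when energy is low, and through transcription factors of the bZIP and MYB families, and it shifts cells towards recycling of proteins, amino acids and cell wall sugars.

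Library totals lay between 15852109 and 27986799 counts, and all 133 members were among the 20038 genes that passed the filter on low counts; the smallest count of a member in a library was 13. The rosette label matched the leaf genes RBCS1A, CAB1 and RCA, which had group means between 9396 and 17980 CPM. Of the markers of other tissues, the root genes EIR1 and SHV2 and the seed genes CRA1 and OLEO1 were under 1 CPM in every group, and the summed level of the 3 seed genes was at most 2.03 CPM. The third root gene, PYK10, brought the summed root list to between 378 and 737 CPM in infested plants, against 168 to 301 CPM in uninfested plants, and the summed xylem list of 4 genes was between 59.1 and 103 CPM, against 33.8 to 63.3 CPM. The summed phloem list was between 239 and 288 CPM in infested plants, against 200 to 250 CPM in uninfested plants. The trichome list was between 22.7 and 28.6 CPM, against 11.95 to 20.9 CPM, and the guard cell list between 46.4 and 64.95 CPM, against 58.4 to 70.0 CPM. The flower and shoot meristem list was between 7.42 and 18.8 CPM, against 6.13 to 15.4 CPM. The part of these tissues in the responses to the pests was not tested. The 4 libraries of not-primed uninfested plants fell into pairs. Replicates 3 and 4 were both above replicates 1 and 2 in 67 members (50.4%, against 34.8% of all tested genes), both below in 13 (9.77%, against 18.6%), and overlapped with them in 53. The median difference of replicates 1 and 2 minus replicates 3 and 4, in log2(CPM + 1), was -0.16 over the members and -0.05 over the genes with at least 5 CPM in the 3 primed groups. In bulk tissue, fewer cells that use a gene and less RNA of it per cell cannot be told apart.

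Over the 133 members the median ratio of primed to not-primed plants was 2.07 without pests, 2.04 under mites and 1.93 under caterpillars. Over the 13696 genes with at least 5 CPM in the 3 primed groups the same medians were 1.03, 1.00 and 1.02. These ratios chose the members, so they are given as a description with no test. The ratio was at least 2 in every state in 41 members and at least 3 in 12. It was largest under mites in 61 members, without pests in 49 and under caterpillars in 23. The libraries of primed plants were all above those of not-primed plants in 127 members without pests, 132 under mites and 127 under caterpillars, against 11.5%, 6.61% and 8.26% of all tested genes. In all 3 states together this held for 124 members, and the share of all tested genes for which it held was not counted. In edgeR's quasi-likelihood test 129, 131 and 129 members were higher in primed plants, where 7.44%, 3.54% and 3.99% of all tested genes were, and 0 were lower, where 7.35%, 2.82% and 4.16% of all tested genes were. The rule used these contrasts, and nothing is read from these counts. Mean levels over the primed groups reached from 6.10 to 1432 CPM with a median of 27.7 CPM, 19 members were at 100 CPM or more and 24 under 10 CPM. The mirrored rule, with not-primed over primed plants, found 32 genes.

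**Figure D1:**
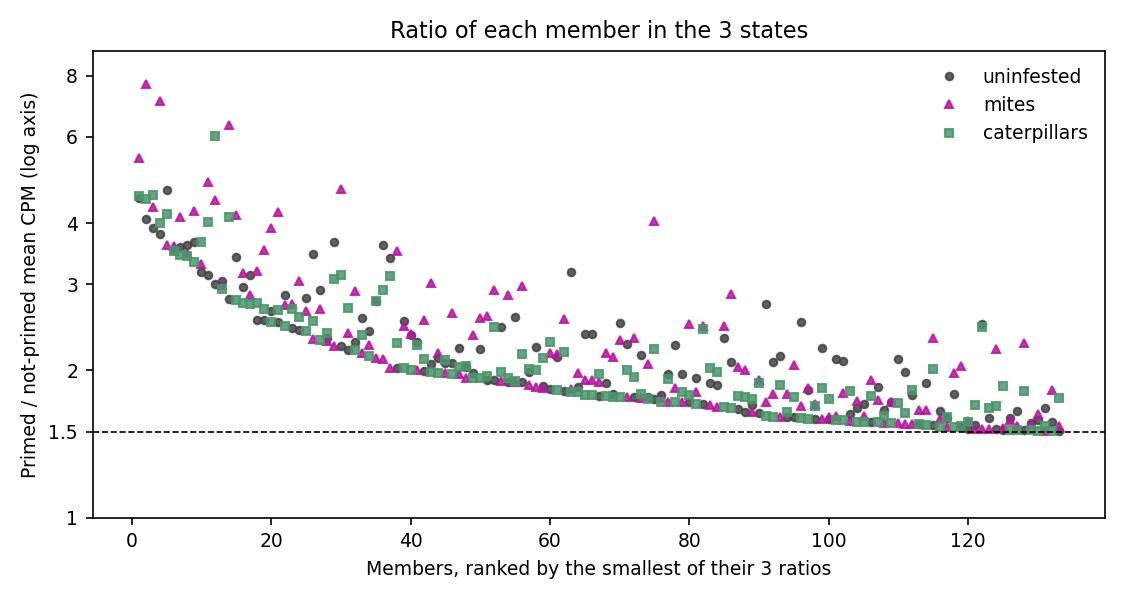
Ratio of mean CPM in primed over not-primed plants (log axis) of the 133 members, ranked by the smallest of their 3 ratios, in uninfested plants (circles), under mites (triangles) and under caterpillars (squares); the dashed line marks the threshold of 1.5. The largest ratios reached 4.67 without pests, 7.69 under mites and 6.04 under caterpillars, and most members lay between 1.5 and 3.

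Values at the edge of the set differed little from those beyond it. Just inside, the smallest of the 3 ratios was 1.51 for AT4G19420, HBI1 and AT4G16008, 1.505 for ERF-1 and 1.503 for PSBP-2. Just outside, it was 1.497 for AT1G21000, 1.495 for AT4G11300, 1.49 for AT1G21830 and AT4G17900, and 1.48 for AT5G18130.

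The mean of log2(CPM + 1) over the members, computed per library as a score, was 5.09, 5.15, 5.16 and 5.16 in primed and 3.92, 4.06, 4.15 and 4.23 in not-primed uninfested plants. Under mites it was 4.96, 4.97, 5.08 and 5.05 in primed and 3.99, 3.79, 3.92 and 3.97 in not-primed plants. Under caterpillars it was 4.75, 4.65, 4.90 and 4.91 in primed and 3.74, 3.83, 3.85 and 3.88 in not-primed plants. Every primed library was above every not-primed library, also across states. The rule chose the members by their ratios in these same libraries, so the score is a description and nothing is read from this separation. The not-primed scores of uninfested plants had the widest spread of the not-primed groups (SD 0.134, n = 4). The members took 0.916% ± 0.015 of all counts in primed and 0.456% ± 0.034 in not-primed uninfested plants (SD, n = 4 each).

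**Figure D2:**
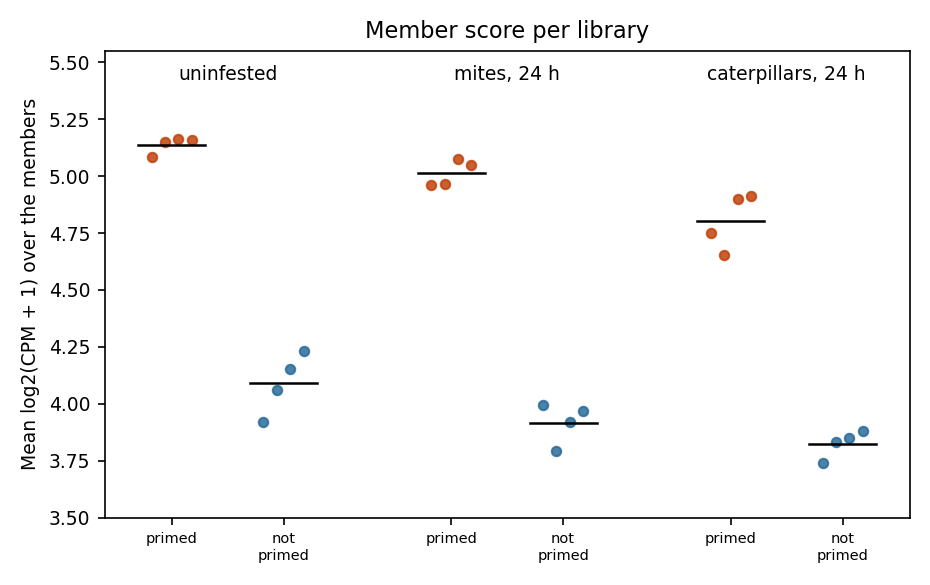
Mean log2(CPM + 1) over the members in each library, with primed libraries left of not-primed ones in each state; points are libraries and bars are means of 4. Primed libraries lie between 4.65 and 5.16 and not-primed ones between 3.74 and 4.23. The members were chosen by their ratios in these libraries, so the gap is a description.

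The members with the largest ratios included genes of protein tagging and RNA binding, stress proteins and genes without an established role. AT1G02610, a RING-type zinc finger gene, had the highest smallest ratio. It was measured at 7.996, 11.4, 10.7 and 12.6 CPM in primed and 1.58, 3.09, 2.29 and 2.51 CPM in not-primed uninfested plants, with ratios of 4.51, 5.43 and 4.55 without pests, under mites and under caterpillars. AT3G15630, which has no annotated function, had 10.98, 11.7, 16.2 and 12.3 CPM in primed and 1.68, 2.05, 1.48 and 1.44 CPM in not-primed plants under mites, the largest ratio of the set (7.69). Both genes were low in all not-primed libraries and their groups did not overlap in any state.

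ATCTH, also known as TZF1, encodes a CCCH zinc finger protein that binds RNA in cytoplasmic granules. Its levels were 162, 173, 169.7 and 171 CPM in primed and 31.9, 38.9, 52.7 and 49.4 CPM in not-primed uninfested plants. Under mites they were 99.5, 109, 116 and 125 CPM in primed and 32.2, 17.7, 26.1 and 28.4 CPM in not-primed plants, and under caterpillars 108, 94.8, 123 and 143 CPM in primed and 21.5, 26.2, 23.3 and 31.6 CPM in not-primed plants. The lowest primed library lay above the highest not-primed one in each state. OZF2, of the same zinc finger type, had ratios of 2.78, 2.12 and 2.78 in the same order of states, and AT2G36320, of the A20/AN1 type, had 1.60, 1.52 and 1.68.

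OXS3, a nuclear stress tolerance gene, had close levels in primed plants, at 84.9 to 90.1 CPM without pests and 83.5 to 94.6 CPM under mites. In not-primed plants it was at 16.4 to 28.5 CPM without pests and 8.30 to 18.3 CPM under mites, so that its ratio was 3.81 in uninfested plants and 7.10 under mites. AT5G21940, annotated by likeness to a histidine kinase, was measured at 173, 179.8, 189.9 and 185 CPM in primed and 30.3, 19.7, 36.6 and 27.96 CPM in not-primed plants under mites and had ratios of 2.80, 6.36 and 4.12. For both genes the ratio was largest under mites. AT4G27450, annotated as an aluminum-induced protein, had ratios of 3.66, 4.23 and 3.34, and AT3G10020, without an annotated role here, had 3.19, 3.29 and 3.66. The other members of the redox and stress group included HSPRO2, known for basal resistance to bacteria, with ratios of 2.51, 4.21 and 2.65, the atypical thioredoxin gene ACHT5 with 2.24, 4.69 and 3.13 and the dehydration-induced gene ERD15 with 1.85, 1.74 and 1.57.

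**Figure D3:**
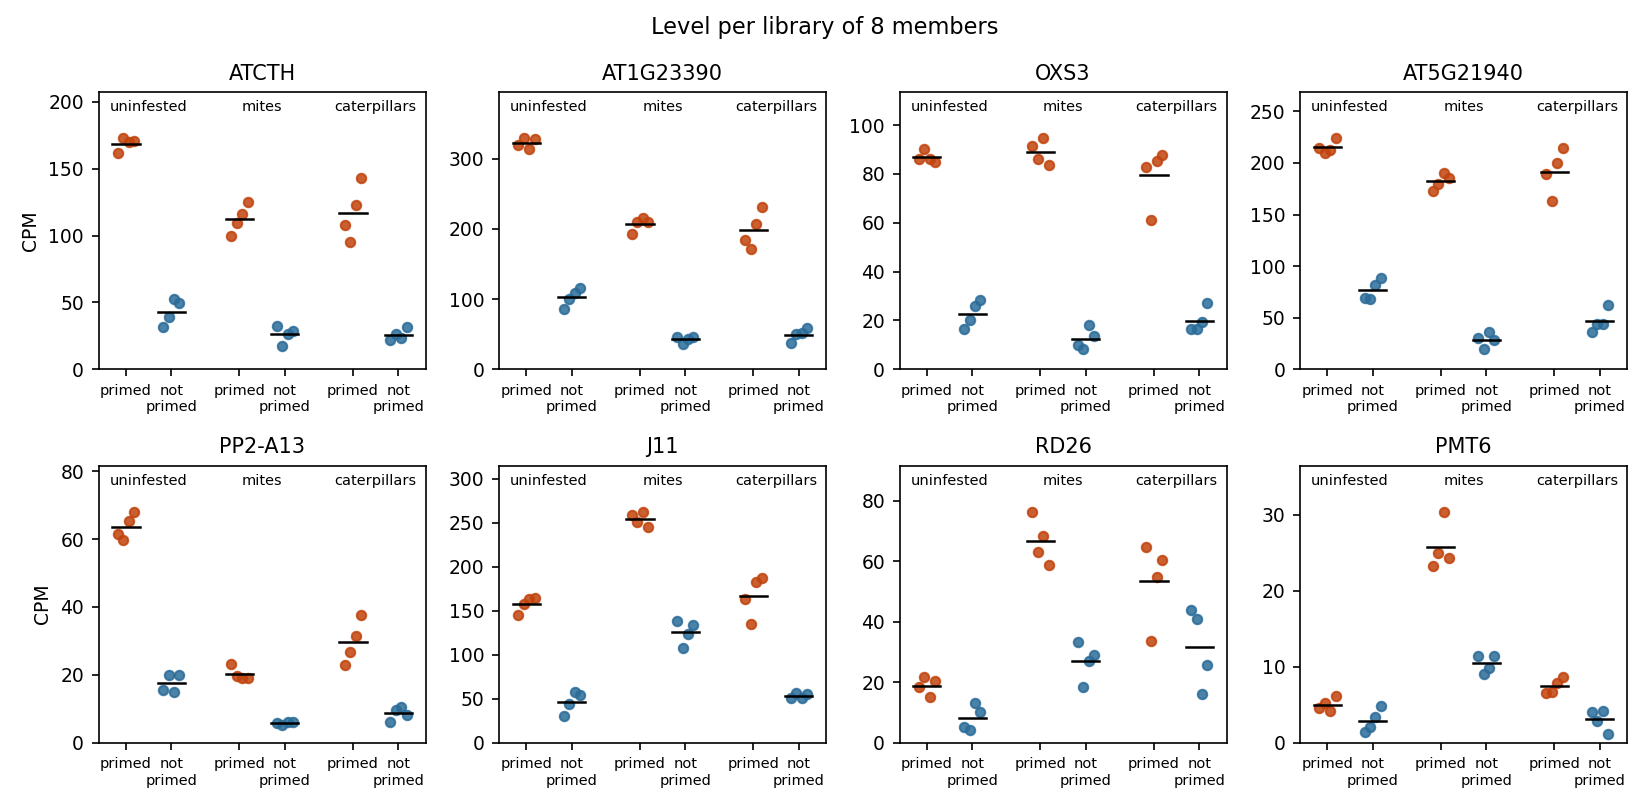
CPM in each library (points) and group means of 4 (bars) of 8 members, with primed plants (red-brown) left of not-primed plants (blue) in each state. ATCTH, AT1G23390, OXS3, AT5G21940, PP2-A13 and J11 keep primed and not-primed libraries apart in each state, whereas RD26 and PMT6 overlap in 1 state each, RD26 under caterpillars and PMT6 in uninfested plants.

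Of 12 sequence motifs searched near the annotated starts, 3 that are known from sugar-responsive and light-responsive plant promoters were found in more member promoters than in promoters at large. The window ran from 250 bases before to 50 bases after the start, in the RefSeq annotation of TAIR10.1, and 132 of the 133 members had one (AT5G06865, a long noncoding RNA gene, is the other). TATCCA, the amylase sugar element, was found on either strand in 48 member promoters (36.4%, against 16.1% of all 27443 promoters and 17.2% of the 13579 promoters of genes at 5 CPM or more). TTATCC, the sugar-repressive element, was found in 52 (39.4%, against 14.8% and 16.6%). GATAAG, the I-box, was also found in 52 (39.4%, against 14.6% and 15.5%). The 3 motifs overlap, since TTATCCA holds both of the first and CTTATCC holds TTATCC and the I-box on its other strand, so their shares are not separate counts. At least 1 of them was in 80 member promoters (60.6%, against 32.5% and 34.3%), and the joint word CTTATCCA was in 16 (12.1%, against 1.36% and 1.71%).

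The evening element AAATATCT of clock-regulated promoters was in 17 member promoters (12.9%, against 5.65% and 5.64%). The G-box CACGTG was in 9.85%, against 7.68% of all promoters and 9.4% of those of genes at 5 CPM or more. The CCA1-binding site AAAAATCT was in 9.85%, against 7.88% and 8.35% in the same order, and the W-box TTGACC in 16.7%, against 14.2% and 14.1%. The proline-response element ACTCAT was in 15.2%, against 14.7% and 13.6%, and the heat shock element GAANNTTC in 17.4%, against 11.6% and 11.1%. The DRE core CCGAC was in 18.9%, against 15.0% and 16.8%. The GCC box GCCGCC of ethylene response factors was in 1.52%, against 2.57% and 2.64%. The site II motif TGGGCC was in 7.58%, against 15.5% of all promoters and 21.5% of those of genes at 5 CPM or more. These matches are a description of letters near the start, not of binding, and the motifs were chosen with earlier results of these data known.

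The promoters shown are those of the 6 members with the highest smallest ratio that hold 1 of the 3 motifs or the evening element in the 250 bases before the start. They are given 5′ to 3′ on the strand of the gene, and capitals mark the amylase sugar element, the sugar-repressive element, the I-box and the evening element on either strand. They lie at chr3:5297852-5298101, minus strand (AT3G15630), chr2:6922162-6922411, minus strand (MEE14), chr3:2346936-2347185, plus strand (AT3G07350), chr4:13729003-13729252, minus strand (AT4G27450), chr5:25679175-25679424, plus strand (AT5G64190) and chr1:30404714-30404963, minus strand (J8), in TAIR10.1.
AT3G15630: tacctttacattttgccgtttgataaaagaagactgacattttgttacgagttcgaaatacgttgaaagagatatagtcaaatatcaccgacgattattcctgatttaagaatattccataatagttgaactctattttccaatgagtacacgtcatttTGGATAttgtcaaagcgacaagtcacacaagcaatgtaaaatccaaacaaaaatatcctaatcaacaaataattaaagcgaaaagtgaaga
MEE14: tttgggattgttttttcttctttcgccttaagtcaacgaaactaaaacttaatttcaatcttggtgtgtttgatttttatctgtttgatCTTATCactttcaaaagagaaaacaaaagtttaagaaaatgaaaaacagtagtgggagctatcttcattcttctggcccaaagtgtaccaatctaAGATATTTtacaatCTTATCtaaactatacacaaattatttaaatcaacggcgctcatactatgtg
AT3G07350: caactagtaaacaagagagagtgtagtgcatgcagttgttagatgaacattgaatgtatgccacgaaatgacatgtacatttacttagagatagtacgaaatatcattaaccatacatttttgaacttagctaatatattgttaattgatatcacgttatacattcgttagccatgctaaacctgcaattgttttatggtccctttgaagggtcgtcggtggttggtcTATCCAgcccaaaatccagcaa
AT4G27450: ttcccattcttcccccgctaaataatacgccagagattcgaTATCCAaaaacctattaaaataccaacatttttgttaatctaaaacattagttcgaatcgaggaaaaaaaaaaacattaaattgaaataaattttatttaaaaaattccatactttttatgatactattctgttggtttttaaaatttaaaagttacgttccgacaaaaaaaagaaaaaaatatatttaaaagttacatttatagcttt
AT5G64190: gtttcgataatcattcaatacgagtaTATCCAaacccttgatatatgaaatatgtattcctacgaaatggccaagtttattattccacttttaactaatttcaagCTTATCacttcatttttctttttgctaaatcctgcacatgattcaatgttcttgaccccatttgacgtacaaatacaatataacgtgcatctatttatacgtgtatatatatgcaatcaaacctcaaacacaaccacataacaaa
J8: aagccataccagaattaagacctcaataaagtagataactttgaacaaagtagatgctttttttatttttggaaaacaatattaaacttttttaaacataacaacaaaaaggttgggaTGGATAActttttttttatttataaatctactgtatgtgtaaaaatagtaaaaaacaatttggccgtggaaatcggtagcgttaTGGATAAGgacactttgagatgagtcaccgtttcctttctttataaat

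J8, a gene of a chloroplast DnaJ protein with ratios of 3.04, 3.00 and 2.93, held TATCCA at 2 places on its reverse strand, each within TTATCCA, and 1 of these overlapped the I-box. MEE14, named for an embryo arrest mutant, held the I-box at 2 places and the evening element at 1, and had 5.57, 8.48, 8.76 and 5.62 CPM in primed and 1.81, 1.75, 1.39 and 1.14 CPM in not-primed uninfested plants. AT5G64190, annotated as a PAS domain protein, held TATCCA and the I-box at 1 place each, and had the largest ratio of the set under caterpillars, with 7.39, 5.61, 9.32 and 8.48 CPM in primed and 0.726, 0.974, 1.82 and 1.58 CPM in not-primed plants. The sequences shown of AT3G15630, AT3G07350 and AT4G27450 held TATCCA at 1 place each. All places given here are those in the sequences shown, which end before the start. In the longer window used for the shares, which runs past the start, AT3G15630 also held TTATCC and the I-box. In the same window AT4G27450 also held TTATCC.

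At least 1 of the 3 motifs was in 28 of the 41 promoters of members with a ratio of 2 or more in every state (68.3%) and in 52 of the other 91 (57.1%). Among the 17 genes left out by name it was in 15 (88.2%). The share was 32.5% of all promoters and 34.3% of those of genes at 5 CPM or more. The 17 genes are a list picked by name, and the differences between these subsets were not tested. By position, 50 bases at a time, between 15.2% and 18.2% of the member promoters held 1 of the 3 in each stretch from 200 bases before the start to 50 after it, where between 5.90% and 6.70% of all promoters did. From 250 to 201 bases before the start the shares were 7.58% and 6.89%. The members were spread over the 5 chromosomes (34, 23, 20, 27 and 29 genes), and 3 pairs were neighbours in the annotation. AT3G52060 and AT3G52070 start away from each other with 436 bases between them, and their ratios were 2.12, 2.17 and 1.98 for AT3G52060 and 2.24, 1.85 and 2.00 for AT3G52070 without pests, under mites and under caterpillars.

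**Figure D4:**
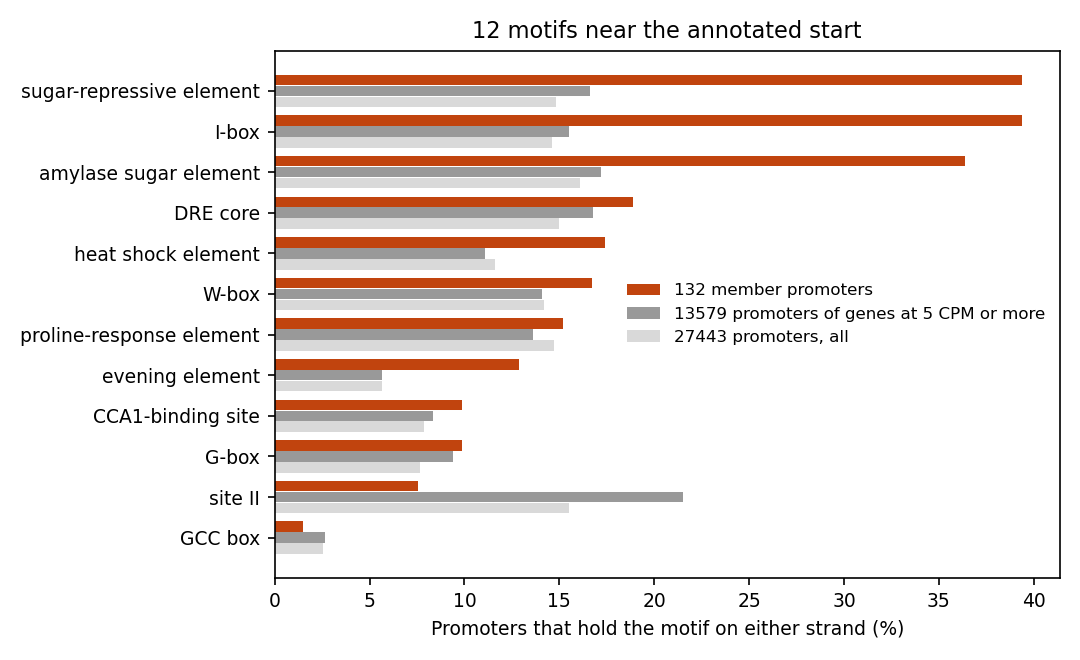
Share of promoters that hold each of 12 motifs on either strand, for the 132 member promoters (red-brown), the 13579 promoters of genes at 5 CPM or more (dark grey) and all 27443 promoters (light grey). The sugar-repressive element, the I-box and the amylase sugar element stand at 36.4% to 39.4% of member promoters and under 18% of the others.

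Of the groups by role with more than 5 members, the 14 RING and F-box genes of protein tagging had the highest median ratios, at 2.43, 2.46 and 2.44 without pests, under mites and under caterpillars. Among them were 3 kelch F-box genes. AT1G23390, which encodes KFB-CHS, a kelch F-box protein that marks chalcone synthase for degradation, had 319, 329, 313 and 327 CPM in primed and 86.4, 100.3, 108 and 116 CPM in not-primed uninfested plants, and 193, 209, 216 and 209.9 CPM in primed and 45.2, 35.3, 43.7 and 46.5 CPM in not-primed plants under mites. AT3G59940 and AT1G15670, kelch F-box genes of the KMD family that acts on cytokinin response regulators, had ratios of 2.42, 3.05 and 2.57 for AT3G59940 and of 1.61, 1.79 and 1.64 for AT1G15670. AT5G22920, a CHY-type RING gene also known as CHYR1, had ratios of 3.57, 4.12 and 3.44, and PP2-A13, an F-box gene with a lectin-like phloem protein domain, had 3.61, 3.47 and 3.43. Levels of PP2-A13 were 61.5, 59.6, 65.3 and 68.04 CPM in primed and 15.7, 19.96, 14.95 and 19.8 CPM in not-primed uninfested plants, without overlap.

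The largest group was that of 26 transcription factors, whose ratios were modest. Their median ratios were 1.81, 1.84 and 1.71, and 2 of the 26, MYBL2 and RAV2, had at least 2 in every state. MYBL2, a repressor of anthocyanin genes, had 54.4 ± 3.85 CPM in primed and 24.6 ± 4.12 CPM in not-primed uninfested plants (SD, n = 4 each). RAV1, RAV2 and TEM1, of a family that delays flowering, had ratios of 1.90, 2.85 and 1.93 for RAV1, of 2.02, 3.51 and 2.27 for RAV2 and of 1.89, 2.97 and 2.16 for TEM1. Of the B-box genes, BBX14 was at 317, 324, 324 and 342 CPM in primed and 153, 142, 143 and 152 CPM in not-primed plants under mites, and BBX17 had ratios of 1.92, 2.58 and 1.95. LBD38, a repressor of nitrate-responsive and anthocyanin genes, was near the threshold, with ratios of 1.51, 1.52 and 1.86.

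Some members reached the ratio of 1.5 without pests against replicates 1 and 2 of the not-primed controls and not against replicates 3 and 4. They included ERF-1, an ethylene response factor, WRKY53, a regulator of senescence and defence, MKK9, a kinase of the ethylene and senescence pathways, and PMT6, a transporter of sugar alcohols and sugars. ERF-1 was measured at 8.10, 8.81, 6.598 and 7.64 CPM in primed and 3.80, 3.13, 6.98 and 5.93 CPM in not-primed uninfested plants, replicates 1 to 4 in order. Against replicates 1 and 2 of the not-primed controls its ratio was 2.24, and against replicates 3 and 4 it was 1.21. The same 2 ratios were 2.36 and 1.12 for MKK9, 2.65 and 1.15 for WRKY53, and 2.91 and 1.21 for PMT6. RD26, a NAC factor of abscisic acid and drought responses, had 4.07 and 1.63. The first 4 of these genes overlapped between primed and not-primed uninfested plants. Across the set, 118 members had a ratio of 1.5 or more against replicates 3 and 4 alone (median 1.97) and 128 against replicates 1 and 2 alone (median 2.22).

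Of the genes of sugar handling, 13 members encode enzymes or transporters, with median ratios of 2.07, 2.33 and 1.97. AT3G49790, annotated as a carbohydrate-binding protein, had the highest smallest ratio, with 3.41, 4.16 and 2.79. BGAL4, a beta-galactosidase gene, was at 27.6, 34.7, 33.1 and 25.1 CPM in primed and 5.66, 11.6, 14.3 and 19.5 CPM in not-primed uninfested plants. BXL1, a beta-xylosidase of the cell wall, had ratios of 2.07, 1.97 and 2.11, the galactose transporter gene STP14 had 1.98, 2.36 and 1.93, and UGE1, for the epimerase that interconverts UDP-glucose and UDP-galactose, had 2.11, 1.61 and 1.59. AKINBETA1, a regulatory subunit of SnRK1, was at 42.7, 52.2, 51.3 and 46.1 CPM in primed and 19.2, 24.7, 20.9 and 25.4 CPM in not-primed uninfested plants, without overlap, and its ratios were 2.13, 2.16 and 1.82. ATG8E, whose product coats autophagosomes, had ratios of 1.77, 2.06 and 1.75, and the dormancy-associated gene DYL1 (also DRM1) had 2.49, 1.52 and 2.46.

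Per length, the most abundant member was LHB1B1, a light-harvesting protein gene. In the deposited FPKM values it averaged 977 FPKM in primed and 632 FPKM in not-primed uninfested plants, where the medians over the members were 19.5 and 9.46. Its ratios were 1.60, 1.53 and 1.60. Light-harvesting genes of this type are near-identical and PSBP-2 has a close relative, so reads may be shared between copies, and both values are uncertain. Of all members, 31 overlap an annotated gene on the opposite strand, among them AT3G15630, PP2-A13, AT4G27450, AT5G21940 and BBX14, and the use of strand in counting is not given in the sources used here.

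Lists of related genes, chosen with earlier results of these data known, were set beside the members. Of 15 tested genes known as low-sugar or dark-induced, 3 of them members, 5 were higher in primed than in not-primed uninfested plants, 7 under mites and 6 under caterpillars, and 0 were lower. The rule chose the 3 members by these ratios, so nothing is read from their part in the counts. Outside the set, the dormancy-associated gene AT2G33830 and the sugar transporter gene STP1 were higher in every state, with log2 fold changes of 1.08, 0.94 and 1.32 for AT2G33830 and 0.80, 0.74 and 0.45 for STP1. Of 24 autophagy genes, 8, 5 and 4 were higher and 0 lower, and 1 of those higher in every state is the member ATG8E, which the rule chose by these ratios. Of 15 genes of branched-chain amino acid and lysine breakdown, 8 were higher without pests, 0 under mites and 1 under caterpillars, and 0 were lower. Of 42 jasmonate genes, 1, 2 and 0 were higher and 1, 1 and 4 lower, and of 15 salicylic acid genes 0 passed the test in any state. These counts are from edgeR's quasi-likelihood test with p adjusted over all tested genes, of which 7.44%, 3.54% and 3.99% were higher and 7.35%, 2.82% and 4.16% lower, in the same order of states.

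Infestation was set against the uninfested state within each kind of plant. These contrasts gave the rule no direction, though they use the same libraries. Under mites, 29 of 133 members rose and 52 fell in primed plants, and 26 rose and 55 fell in not-primed plants. Of all tested genes 22.3% were higher and 23.5% lower in primed plants under mites, and 26.5% and 24.9% in not-primed plants. The members' shares were 21.8% and 39.1% in primed and 19.5% and 41.4% in not-primed plants, so that their share of falls was above that of all genes and their share of rises close to or below it. Among the 13696 genes at 5 CPM or more, which exclude the low genes as the rule did, 29.7% fell in primed and 31.6% in not-primed plants under mites. The median log2 fold change of the members was -0.09 in primed and -0.18 in not-primed plants, against -0.02 and 0.01 over all tested genes.

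The members that fell most under mites did so in both kinds of plant. AT3G62070, an uncharacterized gene, had 5.91, 6.90, 6.56 and 9.97 CPM under mites and 42.6, 45.2, 43.3 and 38.5 CPM without pests in primed plants, a log2 fold change of -2.50 ± 0.13 (SE; edgeR adjusted p = 9.93e-13). In not-primed plants it was -1.98 ± 0.14 (adjusted p = 8.17e-11). AT4G36850, of a family of PQ-loop membrane transporters, had 18.8, 26.9, 30.5 and 27.2 CPM under mites and 133, 130.1, 152 and 101 CPM without pests in primed plants (-2.30 ± 0.19 in primed and -2.27 ± 0.21 in not-primed plants). PP2-A13 fell by a similar amount in primed (-1.64 ± 0.13) and not-primed plants (-1.61 ± 0.15), and AT5G22920 fell in both (-1.24 ± 0.14 in primed and -1.48 ± 0.16 in not-primed plants). In not-primed plants ACHT5 (-1.78 ± 0.22) and AT1G54740, of a family of meristem regulators (-1.70 ± 0.17), also fell. In all of these the infested libraries lay below the uninfested ones without overlap.

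The members that rose most under mites included PMT6 and the stress regulators ERF-1, RD26 and MKK9. PMT6 was at 23.3, 25.05, 30.4 and 24.3 CPM under mites and 4.55, 5.19, 4.14 and 6.12 CPM without pests in primed plants (2.38 ± 0.25, edgeR adjusted p = 2.93e-08), and rose by 1.83 ± 0.27 in not-primed plants. ERF-1 rose by 2.14 ± 0.20 in primed and 1.91 ± 0.21 in not-primed plants. RD26 rose by 1.83 ± 0.28 and 1.73 ± 0.30, MKK9 by 1.60 ± 0.21 and 1.53 ± 0.22, and SHM7, of serine and one-carbon metabolism, by 1.04 ± 0.12 and 1.03 ± 0.12, in the same order. J11, for a DnaJ protein of chloroplasts, was at 138, 107, 123 and 133 CPM under mites and 30.2, 43.7, 57.3 and 54.3 CPM without pests in not-primed plants (1.42 ± 0.13), and in primed plants its log2 fold change was 0.70 ± 0.12. AT4G16000, an uncharacterized gene, rose by 1.87 ± 0.28 in not-primed plants.

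Under mites 43 members passed the test as lower in both kinds of plant, 9 in primed and not in not-primed plants, and 11 in not-primed and not in primed plants. As higher, 19 passed in both, 9 in primed plants alone and 7 in not-primed plants alone, and 1 member, AT1G78830, passed as higher in primed and as lower in not-primed plants. Under caterpillars 52 passed as lower in both, 13 in primed plants alone and 7 in not-primed plants alone. The same split was not counted over all tested genes, so nothing about the members is read from these overlaps. Of the members called lower under mites in primed plants alone, DYL1 had a log2 fold change of -0.63 ± 0.18 in primed plants (edgeR adjusted p = 0.0063) and 0.05 ± 0.20 in not-primed plants (adjusted p = 0.866), with libraries that overlapped in both. OXS3, AT5G21940 and AT3G15630, all with high ratios under mites, were called lower in not-primed plants alone. The log2 fold change of OXS3 was 0.05 ± 0.16 in primed plants (edgeR adjusted p = 0.844) and -0.88 ± 0.19 in not-primed plants (adjusted p = 0.000328), where the libraries overlapped. That of AT5G21940 was -0.23 ± 0.13 in primed plants (adjusted p = 0.167) and -1.44 ± 0.14 in not-primed plants (adjusted p = 9.26e-09). For AT3G15630 it was -0.33 ± 0.14 in primed plants (adjusted p = 0.0552) and -1.28 ± 0.19 in not-primed plants (adjusted p = 2.55e-06). The difference between primed and not-primed plants is made of the ratios that chose the members, and it was not tested.

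Under caterpillars most of the members that passed the test fell. In primed plants 10 rose and 65 fell, and in not-primed plants 12 rose and 59 fell. Of all tested genes 12.1% were higher and 11.8% lower in primed plants under caterpillars, and 14.2% and 13.6% in not-primed plants, whereas 48.9% of the members fell in primed and 44.4% in not-primed plants. Among the genes at 5 CPM or more the shares that fell were 15.4% in primed and 18% in not-primed plants. The median log2 fold change of the members was -0.31 in primed and -0.29 in not-primed plants, against -0.01 and 0.00 over all tested genes. The count of 10 rises was 6 without primed uninfested replicate 2, primed uninfested replicate 3 or primed caterpillar replicate 1. The count of 12 rises was 6 when not-primed uninfested replicates 1 and 2 were left out and 18 when replicates 3 and 4 were.

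**Figure D5:**
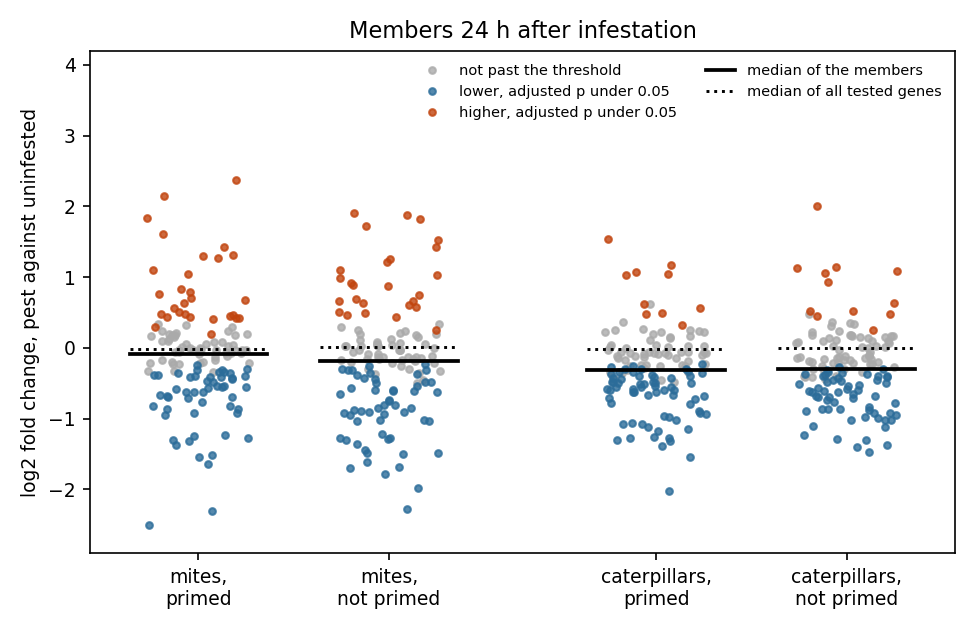
Log2 fold change of each member 24 h after infestation against uninfested plants of the same kind (points; red-brown and blue are past the threshold of adjusted p 0.05, grey are not), with the median of the members (solid bars) and of all tested genes (dotted bars). The medians of the members lie between -0.31 and -0.09, and more members are past the threshold below 0 than above it in each of the 4 contrasts.

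AT3G62070 fell most under caterpillars in primed plants, with 11.1, 10.5, 9.43 and 9.998 CPM under caterpillars and 42.6, 45.2, 43.3 and 38.5 CPM without pests (-2.02 ± 0.13, edgeR adjusted p = 4.8e-10). AT5G22920 fell by about as much in primed (-1.54 ± 0.14) as in not-primed plants (-1.48 ± 0.15), where it was at 6.25, 7.19, 10.1 and 7.05 CPM under caterpillars and 22.5, 23.6, 18.8 and 22.4 CPM without pests. ACHT5 fell in primed (-0.94 ± 0.19) and not-primed plants (-1.40 ± 0.21), and so did AT2G29300, of the Rossmann-fold superfamily (-1.38 ± 0.16 in primed and -0.88 ± 0.17 in not-primed plants). The kelch F-box gene AT1G23390 (-0.67 ± 0.10 in primed and -1.02 ± 0.11 in not-primed plants) and the SnRK1 subunit gene AKINBETA1 (-0.68 ± 0.10 and -0.45 ± 0.11) fell as well. The rises were led by RD26 (1.53 ± 0.28 in primed and 2.00 ± 0.30 in not-primed plants), MKK9 (1.18 ± 0.22 and 1.14 ± 0.22), ERF-1 (1.07 ± 0.21 and 1.13 ± 0.22) and SHM7 (1.04 ± 0.12 and 1.09 ± 0.12). RD26 was at 64.6, 33.5, 54.8 and 60.4 CPM in primed and 43.9, 40.9, 16.2 and 25.6 CPM in not-primed plants under caterpillars, and these groups overlapped.

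By role, all 5 members with a DUF506 or DUF584 domain, of unknown role, fell under mites in both kinds of plant, and 3 fell under caterpillars in each. Of these 5, AT3G07350 had calls that single libraries ended, with log2 fold changes of -0.39 ± 0.15 in primed and -0.43 ± 0.17 in not-primed plants under mites. The call in primed plants was lost without any of 9 single libraries, with -0.27 without primed mite replicate 2 and values between -0.39 and -0.36 without primed uninfested replicates 1 to 4, primed mite replicate 4 or not-primed mite replicates 1, 3 and 4. The call in not-primed plants was lost without any of 4, with -0.25 without not-primed uninfested replicate 4, -0.34 without replicate 3, and -0.40 and -0.37 without not-primed mite replicates 1 and 2. Of the 14 RING and F-box genes, 2 rose and 5 fell under mites and 0 rose and 7 fell under caterpillars in primed plants, and in not-primed plants the counts were 1 and 5 under mites and 0 and 6 under caterpillars. Of the 26 transcription factors, 6 rose and 9 fell under mites and 2 rose and 11 fell under caterpillars in primed plants, and in not-primed plants 4 and 11 under mites and 3 and 11 under caterpillars. Of the 13 sugar enzymes and transporters, 2 rose and 6 fell under mites and 1 rose and 8 fell under caterpillars in primed plants, and in not-primed plants the counts were 2 and 6 for mites, 0 and 7 for caterpillars. Of the genes at 5 CPM or more, 23% rose in primed and 28.5% in not-primed plants under mites, and 12.6% and 15.8% under caterpillars. Of the same genes, 29.7% fell in primed and 31.6% in not-primed plants under mites, and 15.4% and 18% under caterpillars. Under mites in primed plants the falls of the RING and F-box genes (35.7%) and the transcription factors (34.6%) were near that share. Under caterpillars in primed plants 42.3% of the transcription factors, 50% of the RING and F-box genes and 61.5% of the sugar genes fell. Of all 133 members 48.9% fell in the same comparison. The groups were drawn up after the members were known and are small, and differences between them were not tested.

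The 2 pests were also compared directly. With caterpillars over mites, 10 members were higher and 39 lower in primed plants, where 10.5% of all tested genes were higher and 11.5% lower. In not-primed plants 18 were higher and 26 lower, where 13.7% and 11.9% of all tested genes were. The median log2 difference of the members was -0.18 in primed and -0.02 in not-primed plants. The count of 10 in primed plants was 6 without primed caterpillar replicate 4 or primed mite replicate 2.

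PMT6 was lower under caterpillars than under mites, at 6.61, 6.75, 7.86 and 8.66 CPM under caterpillars and 23.3, 25.05, 30.4 and 24.3 CPM under mites in primed plants (-1.76 ± 0.24, edgeR adjusted p = 7.69e-06), and also in not-primed plants (-1.74 ± 0.26). BGAL4 was lower in primed (-1.36 ± 0.22) and not-primed plants (-1.07 ± 0.24), with 10.1, 10.7, 14.01 and 13.9 CPM under caterpillars and 28.9, 28.5, 30.04 and 38.6 CPM under mites in primed plants. CCL, named for its likeness to the clock-regulated CCR genes, was lower in both kinds of plant (-1.06 ± 0.17 in primed and -1.48 ± 0.18 in not-primed plants), as were J11 (-0.59 ± 0.12 and -1.18 ± 0.12) and ATG8E (-0.63 ± 0.09 and -0.36 ± 0.09). Higher under caterpillars were AT4G36850 (0.99 ± 0.19 in primed and 1.16 ± 0.21 in not-primed plants), LHB1B1 (0.64 ± 0.09 and 0.61 ± 0.09) and AT1G22190, annotated as a DNA-binding protein (0.60 ± 0.11 and 0.44 ± 0.12). AT5G14120, of the major facilitator superfamily, was at 181, 148, 140.3 and 139 CPM under caterpillars and 112, 103, 90.3 and 83.6 CPM under mites in not-primed plants (0.69 ± 0.11), without overlap.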

How the data were processed

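RNA was extracted with RNeasy columns and libraries were made with the NEBNext Ultra kit, per the labels' protocols; HISAT2 and TAIR10 are named in the submitters' processing notes, and the counting tool, its annotation and its use of strand are not stated in the labels or file headers. The authors deposited raw read counts per gene and, separately, FPKM values per gene for the 24 libraries, and no column was left unused. CPM are counts over the column sum, scaled as counts per 1000000 counts.

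The members, the motifs and the gene lists were chosen with earlier results of these data known. The role groups were drawn up with the members in view. Infestation contrasts were tested with edgeR 4.0.16 (R 4.3.3) on the deposited counts, in 1 quasi-likelihood fit of 6 group means over all 24 libraries with filterByExpr, TMM scaling and no replicate term. P-values were adjusted by Benjamini-Hochberg over 20038 genes with a threshold of 0.05. Fold changes are log2, and the SE is the fold change divided by the square root of the F statistic. Alternatives used DESeq2 1.42.0, limma 3.58.1 on log2(FPKM + 1), other scalings and filters, and left-out libraries. On simulated data, for primed plants under mites, the edgeR step recovered 100% of 100 genes altered 2-fold and 86% of 100 altered 1.5-fold, and called 13 of the unaltered genes. The simulation fitted the primed mite and primed uninfested groups alone, tested 19127 genes and altered only genes over 5 CPM. It does not cover the fit of all 24 libraries, the not-primed plants or lower genes.

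Genes are named by rank: the highest smallest ratio, the highest CPM, the largest ratio in each state, the largest fold changes with groups that do not overlap, membership of a list, and closeness to the threshold. J8, OZF2, AT2G36320, HSPRO2, MYBL2, RAV1, RAV2, TEM1, BXL1, STP14, UGE1, AT3G49790 and the pair AT3G52060 and AT3G52070, and the contrasts of a named gene beyond those that chose it, were picked after their values were seen. Promoter sequence and gene starts come from RefSeq's TAIR10.1. Chi-square comparisons of counts found no pair of libraries that agreed within sampling noise.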

Additional observations from a re-analysis of the deposited data

Results flagged for a closer look

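Among the 44 members named by rank, checked library by library, and the score over all members, 12 of 270 groups held a library far from its 3 companions, measured by its gap to the nearest of them over the range of the group. Chance flags about 1 in 20 groups.

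Primed plants under mites held 5 of these libraries. AT1G02610 was at 10.2 CPM in replicate 4, where the others were at 8.69 to 8.82 CPM. PP2-A13 was at 23.2 CPM in replicate 1, where the others were at 19.0 to 19.6 CPM. AT3G10020 was at 38.3 CPM in replicate 3, against 33.7 to 34.3 CPM in the others, and AT1G15670 at 16.9 CPM in the same replicate, against 13.6 to 14.1 CPM. BGAL4 was at 38.6 CPM in replicate 4, against 28.5 to 30.0 CPM in the others.

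In primed uninfested plants, replicate 1 was the lowest for the score (5.09, where the others were at 5.15 to 5.16) and for DYL1 (8.70 CPM, where the others were at 11.2 to 11.6 CPM). Of the not-primed plants, AT5G64190 was at 5.35 CPM in uninfested replicate 3, against 2.49 to 2.81 CPM in the others, AT3G07350 at 16.4 CPM in caterpillar replicate 2, against 11.5 to 12.3 CPM, and AT4G16000 at 2.87 CPM in uninfested replicate 3, against 1.04 to 1.23 CPM. In mite replicate 2 of the not-primed plants ERD15 was lowest, at 190 CPM, where the others were at 228 to 233 CPM, and so was MKK9, at 15.8 CPM, where the others were at 20.6 to 21.4 CPM.

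AT1G78830, a gene of a lectin-like protein, moved in opposite directions under mites: every infested library lay above the uninfested ones in primed plants and below them in not-primed plants. Its log2 fold change was 0.19 in primed and -0.25 in not-primed plants, 0.445 apart, and this difference was not tested.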

How the results depend on the processing

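Over 675 alternatives of 22 counts and medians of the members, 668 stayed within 1.5 times the value reported or within its spread. They include the counts and median ratios of the priming contrasts, so part of this agreement was fixed by the rule. With a ratio threshold of 2 the rule found 41 genes in place of 133. Leaving out 1 library at a time gave 124 to 142 genes by the rule, 6 to 13 members that rose under caterpillars in primed plants (10 with all libraries), and 6 to 11 that were higher under caterpillars than under mites in primed plants (10 with all libraries). Without not-primed uninfested replicates 1 and 2, 6 members rose under caterpillars in not-primed plants in place of 12. Of 5542 alternatives for 163 gene values, 5439 kept their direction and side of the threshold and 102 lost the call, 69 of them with 1 library left out. The fold change of AT3G07350 under mites in not-primed plants turned to 0.0192 without not-primed uninfested replicates 3 and 4 (adjusted p = 0.934), where it was -0.43 with all. The cause of these shifts was not tested.

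With the replicate number as a block, 129, 131 and 128 members were higher in primed plants without pests, under mites and under caterpillars, and 0 were lower. The rule used these priming contrasts, and nothing is read from their counts. In the infestation contrasts, the members higher and lower with this block were 31 and 54 (primed) and 26 and 56 (not primed) under mites, 10 and 66 (primed) and 13 and 60 (not primed) under caterpillars, and 10 and 41 (primed) and 20 and 28 (not primed) for caterpillars over mites. The shares of all tested genes with this block were not counted. Libraries with the same number did not deviate together from their group means in a steady way. Their correlations were all positive between primed and not-primed uninfested plants (0.0116 to 0.181) and between the caterpillar and mite groups of primed plants (0.0258 to 0.202). Between the caterpillar and uninfested groups of not-primed plants they were all negative (-0.265 to -0.108). The correlations of same-numbered libraries ran from -0.337 to 0.325 with 9 of 36 over 0.1, and in 24 of 72 comparisons of a library with the 4 of another group its own number had the highest correlation. The numbers were not taken to pair the libraries, and a weak pairing was not tested.

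The rule with FPKM ratios found 117 genes, with TMM scaling 118 and with a CPM minimum of 1, 191. With 4 libraries a group and 24 members under 10 CPM, small fold changes of the low members lie within the spread of the libraries.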

Other observations

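Of 23 tested heat shock genes, none of them a member, 11 were lower in primed than in not-primed plants without pests, 11 under mites and 10 under caterpillars, and 0 were higher (edgeR, p adjusted over all tested genes). The other genes of the list did not pass the test. Of all tested genes 7.35%, 2.82% and 4.16% were lower and 7.44%, 3.54% and 3.99% higher, in the same order of states, and the counts of the next lists stand beside the same shares. Of 21 tested genes of shade, PIF and auxin responses, 8, 3 and 4 were higher in primed plants without pests, under mites and under caterpillars, and 1, 0 and 1 were lower. Of 10 genes of the B-box family and HY5, BBX14 and BBX17, which are members, were higher in every state as the rule required, and 4, 5 and 4 were lower.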
